A study of Mus musculus with 4 samples.

Results

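A set of 10 genes of purine signalling and nucleotide breakdown were followed by symbol through read counts of CD11c+ cells from mouse mesenteric lymph nodes. All 10 symbols matched a single row each among the 55450 gene rows, and all 10 passed the filter on low counts. The group was selected on the read counts of 1 of its genes, Ampd3, which had shown a higher level in wells with an Ffar2 agonist. Its agonist values are therefore given as a description, and the test over all genes is no support for them.

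Ffar2, a surface receptor that couples to G proteins, senses short-chain fatty acids such as acetate, and the series title connects it with IL-27 from dendritic cells. Every library came from wild-type C57BL/6J mice, with no transgene or deletion named in the labels, and without an age for the mice. Nodes were pooled, 2 per sample, CD11c+ cells were enriched with magnetic beads, and each pool of cells was split over a control well with water and one that held the agonist at 10 µM, for 6 h. This gave 2 control and 2 agonist libraries, numbered 2 and 3 in both groups. The titles give only the number, which was taken here as that of the pool. The labels do not name the compound. A well holds a mixture of cells, so fewer cells of a type and less RNA per cell cannot be told apart.

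ATP that leaves stressed or activated cells acts as a danger signal on P2X and P2Y receptors of leukocytes. The membrane enzymes CD39 and CD73 break it down through AMP to adenosine, which dampens dendritic cell and T cell activation through receptors that raise cyclic AMP. Inside the cell AMP deaminases turn AMP into IMP, and adenosine deaminase turns adenosine into inosine. Dendritic cells are known to carry both the sensing and the degrading side of this system.

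Reads assigned to genes ranged from 43238375 to 59902172 per library. The dendritic cell genes Itgax, Flt3, Zbtb46, H2-Ab1, Ccr7 and Cd74 were read in every library, with a summed level of 23420 to 28330 CPM (reads scaled to library size with TMM factors). Summed T cell markers ranged from 279.7 to 836.9 CPM and B cell markers from 963 to 1942 CPM, so other lymph node cells were present. Of the T cell markers 9 of 10 were lower in the agonist well of both pools (median log2 fold change -0.56), as were 9 of 10 B cell markers (-0.30) and 6 of 8 NK cell markers (-0.36), beside 27.9% of all tested genes. The part of such cells in the agonist values of the purine genes was not tested. Reads of Ffar2 itself numbered 176 and 202 (4.04 and 3.87 CPM) in the control wells, against 89 and 116 (1.71 and 2.05 CPM) with agonist. Both agonist libraries lay below both controls in 13.5% of all tested genes. Ffar2 did not pass edgeR's quasi-likelihood test (adjusted p = 0.9999).

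The RefSeq promoter table (GRCm38.p6) held 17 windows for 9 of the 10 genes, each from 250 bases before to 50 bases after an annotated start. Adora2a had no window. The 3 windows of Ampd3, 1 of the 2 overlapping windows of Ampd2 and the windows of P2rx4 and Nt5e are printed because the largest differences outside the sparsely read Adora2b were at these genes. They were chosen after the values were seen. Each is written 5′ to 3′ on the strand of its gene, and capitals mark matches to a cyclic AMP response element (CRE) half-site, to AP-1, to NF-kB or to an E-box.
Ampd3, chr7:110768372-110768671, plus strand: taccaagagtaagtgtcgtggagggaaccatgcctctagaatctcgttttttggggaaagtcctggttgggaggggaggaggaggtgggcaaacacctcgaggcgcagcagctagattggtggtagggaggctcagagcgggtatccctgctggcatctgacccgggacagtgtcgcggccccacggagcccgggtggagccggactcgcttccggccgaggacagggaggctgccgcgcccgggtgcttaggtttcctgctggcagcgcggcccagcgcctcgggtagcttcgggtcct
Ampd3, chr7:110772354-110772653, plus strand: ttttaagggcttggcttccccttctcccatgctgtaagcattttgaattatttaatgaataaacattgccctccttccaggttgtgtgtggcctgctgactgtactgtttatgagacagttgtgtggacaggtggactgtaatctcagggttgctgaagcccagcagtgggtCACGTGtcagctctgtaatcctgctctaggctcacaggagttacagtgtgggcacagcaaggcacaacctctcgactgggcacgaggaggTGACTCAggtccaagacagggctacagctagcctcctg
Ampd3, chr7:110773386-110773685, plus strand: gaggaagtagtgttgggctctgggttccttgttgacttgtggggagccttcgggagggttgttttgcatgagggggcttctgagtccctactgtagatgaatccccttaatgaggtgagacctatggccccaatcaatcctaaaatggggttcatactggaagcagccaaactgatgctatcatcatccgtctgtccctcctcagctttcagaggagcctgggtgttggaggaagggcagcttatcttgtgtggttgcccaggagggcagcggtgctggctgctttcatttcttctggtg
Ampd2, chr3:108085377-108085676, minus strand: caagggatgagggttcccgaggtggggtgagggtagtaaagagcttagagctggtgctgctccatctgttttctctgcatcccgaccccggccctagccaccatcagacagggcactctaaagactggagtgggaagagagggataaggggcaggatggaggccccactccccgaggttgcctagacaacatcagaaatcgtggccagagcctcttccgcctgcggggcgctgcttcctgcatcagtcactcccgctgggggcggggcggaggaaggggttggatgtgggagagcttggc
P2rx4, chr5:122707294-122707593, plus strand: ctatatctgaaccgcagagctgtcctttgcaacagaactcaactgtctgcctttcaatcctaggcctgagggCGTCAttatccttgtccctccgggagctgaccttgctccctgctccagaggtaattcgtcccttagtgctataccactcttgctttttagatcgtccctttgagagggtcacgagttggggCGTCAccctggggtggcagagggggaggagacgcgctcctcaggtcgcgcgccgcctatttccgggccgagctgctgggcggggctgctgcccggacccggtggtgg
Nt5e, chr9:88327359-88327658, plus strand: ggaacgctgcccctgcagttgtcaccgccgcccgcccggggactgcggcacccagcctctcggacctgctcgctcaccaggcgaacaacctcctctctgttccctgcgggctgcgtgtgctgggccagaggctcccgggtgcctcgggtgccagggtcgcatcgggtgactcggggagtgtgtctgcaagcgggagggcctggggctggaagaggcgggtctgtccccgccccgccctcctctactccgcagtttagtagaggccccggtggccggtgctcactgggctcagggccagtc

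Motifs were searched on both strands as TGACGTCA for the full CRE, TGACG for its half-site (which the full CRE contains), TGANTCA for AP-1, CACGTG for the E-box, and the NF-kB consensus. Of 32851 windows in the table, 1.79% held the full CRE, 20.8% the half-site, 7.81% AP-1, 8.46% NF-kB and 7.15% the E-box. None of the 17 windows held the full CRE. The middle of the 3 Ampd3 windows held 1 AP-1 and 1 E-box match, while the outer Ampd3 windows, both Ampd2 windows and the Nt5e window held none of the searched letters. The P2rx4 window held 2 CRE half-sites. A match is a description of letters and not of binding. The counts are per gene, so they do not tell which of the 3 Ampd3 starts was used. The bases just after the start were found in a GENCODE transcript of Ampd3 for the middle window only.

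Levels of different genes were compared as reads per kilobase of merged exons, scaled to library size (RPKM), which corrects for gene length. Adora2a, the adenosine receptor most often studied on lymphocytes and dendritic cells, had the highest level of the 10, with 29.3 and 30.8 RPKM in the control wells, and 27.96 and 40.1 RPKM with agonist. Its mean of 32.0 ± 5.51 RPKM (SD, n = 4) lay above those of 91.7% of the 18297 tested genes, and its lowest library lay above the highest library of every other member. P2rx4 (10.1 ± 3.43), Ampd2 (8.13 ± 2.44) and Entpd1 (5.19 ± 1.38) followed, in RPKM (SD, n = 4). Nt5e (3.92 ± 2.45), P2ry14 (3.79 ± 0.474) and Ada (3.45 ± 0.628) came next. Ampd3 (1.20 ± 0.505), P2rx7 (0.935 ± 0.158) and Adora2b (0.796 ± 0.762) were the lowest. From P2rx4 down to Ada each gene overlapped its neighbour in range, as did Ampd3, P2rx7 and Adora2b among themselves. A gap separated Ada, whose lowest library had 3.07 RPKM, from Ampd3, whose highest had 1.80 RPKM.

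**Figure D1:**
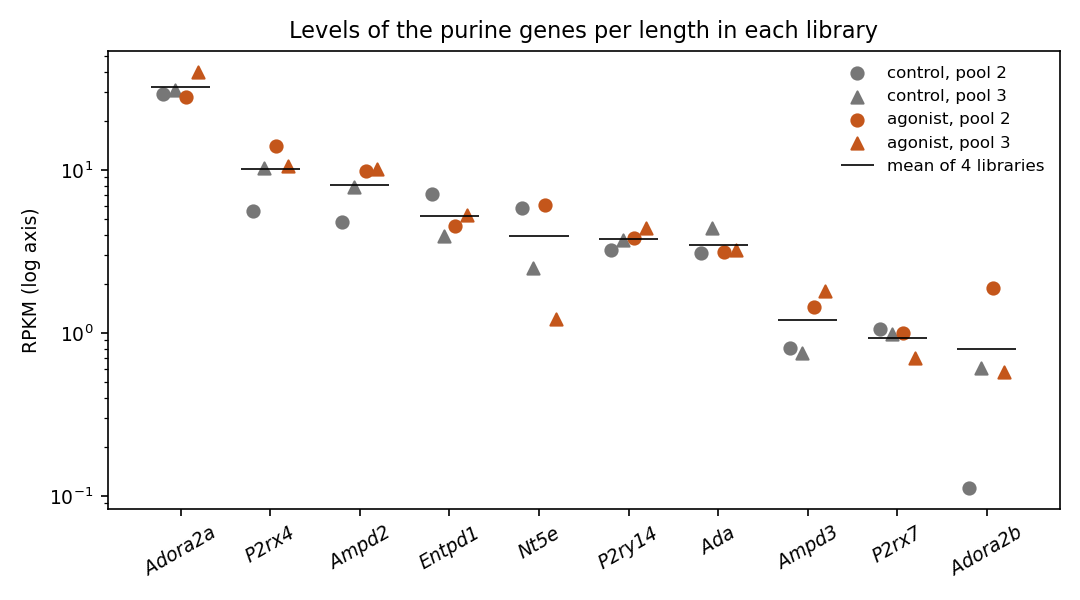
Levels in RPKM on a log axis for the 10 genes, ordered by mean, with 1 point per library (grey for control, orange for agonist, circles for pool 2, triangles for pool 3) and a line at the mean of the 4 libraries. Adora2a stands above the rest at 27.96 to 40.1 RPKM, and Adora2b spreads from 0.112 to 1.89 RPKM.

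Within 3 related pairs 1 gene had the higher RPKM in every library. Ampd2 exceeded Ampd3 5.60-fold to 10.4-fold in RPKM, and P2rx4 exceeded P2rx7 5.33-fold to 14.9-fold. The ratio of Adora2a to Adora2b ran from 14.8-fold in agonist replicate 2 to 261.5-fold in control replicate 2, where only 9 reads of Adora2b were counted. Entpd1 and Nt5e, which act in sequence, had no such fixed order: their RPKM ratio was 1.21 and 1.57 in the controls, 0.737 in agonist replicate 2 and 4.31 in agonist replicate 3.

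Across all genes the agonist comparison called 0 of 18297 in edgeR's quasi-likelihood test at an adjusted p of 0.05 (289 at an unadjusted p under 0.05). DESeq2 called 7 and limma-voom 0. None of the 10 purine genes was among the calls, beside a background of 0% over all genes. In 4 of the 10, Ampd2, Ampd3, P2rx4 and P2ry14, both agonist libraries lay above both controls in CPM (11.4% of all tested genes), and in 0 of 10 both lay below (13.5%). Those 4 were also the members with the higher level in the agonist well of both pools (21.0% of tested genes). P2rx7 alone was lower in both pools (27.9% of tested genes), and the other 5 went opposite ways. The median fitted log2 fold change was 0.21 over the members and -0.05 over all tested genes. Since this comparison chose the group, these counts support nothing.

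The AMP deaminase genes are Ampd1, Ampd2 and Ampd3. Ampd1, the muscle isoform, was sparsely read, at 0.207 and 0.268 CPM in the control and 0.0769 and 0.741 CPM in the agonist libraries, and its groups overlapped. Ampd3 encodes the isoform first described in red blood cells and lies on chromosome 7 (110768206 to 110812405, plus strand, GRCm38). It had 198 reads (4.55 CPM) in control replicate 2, 222 reads (4.25 CPM) in control replicate 3, 420 reads (8.08 CPM) in agonist replicate 2 and 574 reads (10.1 CPM) in agonist replicate 3. The agonist libraries were the higher ones in both pools and the groups did not overlap. The log2 fold change was 0.82 in pool 2 and 1.24 in pool 3, and the fitted value was 1.05 (SE 0.38). With any 1 library left out the fitted value stayed between 0.88 and 1.23.

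Ampd2, the isoform found in most tissues, lies on chromosome 3 (108074062 to 108086651, minus strand). Its 4 libraries held 1091 and 2134 reads (25.1 and 40.9 CPM) in the control and 2667 and 2983 reads (51.3 and 52.6 CPM) in the agonist wells. Control replicate 2 stood low, the agonist libraries were close to each other, and the groups did not overlap. The log2 fold change was 1.03 in pool 2 and 0.36 in pool 3, fitted at 0.66 (SE 0.34), and was 0.35 without control replicate 2 and 1.12 without control replicate 3. Over all tested genes, 13.8% were more than 1 log2 unit higher in the agonist well of pool 2 and 5.67% in pool 3, and 8.85% and 9.55% were lower by as much.

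Some exons of these genes are shared with others on the opposite strand. Ampd3 shares 195 of 5627 merged exon bases with Rnf141, a ubiquitin ligase gene whose level was 32.0 and 46.5 CPM in the control and 42.6 and 45.2 CPM in the agonist libraries. Ampd2 shares 434 of 5224 bases with the antisense gene Gm12500, which had 0 to 6 reads per library. Strand is not kept by the library kit, and reads of such bases cannot be assigned to either gene. Erythroid markers were near 0, and Slc4a1 had no reads in any library. The 8 erythroid genes of the list summed to 5.17 and 0.957 CPM in the control and 1.27 and 1.29 CPM in the agonist wells. With the platelet genes Pf4 and Ppbp included the sum was 8.59 and 20.6 CPM in the control and 12.9 and 31.7 CPM in the agonist wells, with Ppbp as its largest term. The part of erythroid or platelet RNA in the Ampd3 values was not tested.

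Ada, which deaminates adenosine to inosine, lies on chromosome 2 (163726584 to 163750239, minus strand) and was read at 6.16 and 8.79 CPM in the control and 6.27 and 6.42 CPM in the agonist libraries. Control replicate 3 stood above the other 3 libraries, which were close together, and the groups overlapped. The fitted log2 fold change was -0.24 (SE 0.39). It was 0.03 for the pool 2 wells and -0.45 for those of pool 3, and turned to 0.11 without control replicate 3.

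Entpd1 encodes CD39, the ecto-enzyme that takes ATP and ADP to AMP, on chromosome 19 (40612366 to 40741602, plus strand). It had 39.5 and 21.8 CPM in the control and 25.1 and 29.3 CPM in the agonist libraries, with control replicates 2 and 3 at opposite ends. The log2 fold change was -0.65 in pool 2 and 0.43 in pool 3, and the fitted value of -0.17 (SE 0.37) turned to 0.32 without control replicate 2.

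Nt5e encodes CD73, which takes AMP to adenosine, on chromosome 9 (88327197 to 88372092, plus strand). Its libraries held 2200 and 1118 reads (50.5 and 21.4 CPM) in the control and 2731 and 595 reads (52.5 and 10.5 CPM) in the agonist wells. Both pool 2 libraries were high and both pool 3 libraries low, so the conditions overlapped widely. The log2 fold change was 0.06 in pool 2 and -1.03 in pool 3. The fitted value was -0.19 (SE 0.76), -0.48 (SE 0.33) with the pool as a block, 0.56 without control replicate 2 and 0.55 without agonist replicate 3.

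The adenosine receptors of Adora2a and Adora2b raise cyclic AMP through stimulatory G proteins, the former at low and the latter at high adenosine. Adora2a (chromosome 10, 75316877 to 75334784, plus strand) had 89.7 and 94.4 CPM in the control and 85.6 and 122.8 CPM in the agonist libraries. Agonist replicate 3 alone stood apart, and the fitted log2 fold change of 0.18 (SE 0.29) turned to -0.10 without it. Adora2b (chromosome 11, 62248984 to 62266453, plus strand) had 9 and 59 reads (0.207 and 1.13 CPM) in the control and 181 and 60 reads (3.48 and 1.06 CPM) in the agonist libraries. The pool 2 wells held the lowest level (control) and the highest (agonist), while the pool 3 wells were nearly equal. Its log2 fold change was 3.84 in pool 2 and -0.09 in pool 3, and the fitted 1.75 (SE 0.99) ran from 0.69 without agonist replicate 2 to 3.53 without control replicate 3.

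Markers of mast cells, which are known to carry Adora2b, moved with that gene in 1 library. Of the 8 mast cell markers 7 were highest in agonist replicate 2, the exception being Kit, which made up nearly all of the summed 457.2 to 834.3 CPM. Without Kit the sum was 4.69 and 2.14 CPM in the control and 18.7 and 3.09 CPM in the agonist libraries. Fcer1a and Ms4a2 were at 0 in 3 of the 4 libraries and Mcpt4 in both controls. Among 8 stromal and endothelial markers 4 were highest in the same library, with list sums of 97.3 and 66.3 CPM in the control and 76.2 and 46.7 CPM in the agonist wells. Their part in the Adora2b values was not tested.

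P2rx4 and P2rx7 encode ATP-gated cation channels, the latter known for triggering the NLRP3 inflammasome, and stand 16111 bases apart on chromosome 5 (122707544 to 122729738 and 122643911 to 122691432, both on the plus strand). P2rx4 had 1717 and 3755 reads (39.4 and 71.9 CPM) in the control and 5104 and 4182 reads (98.2 and 73.7 CPM) in the agonist libraries. The lowest and the highest level were those of the control and the agonist well of pool 2, and the pool 3 wells were nearly equal. P2rx4 and Adora2b were the members with this order of the pool 2 wells, which 11.03% of all tested genes had. The log2 fold change of P2rx4 was 1.31 in pool 2 and 0.04 in pool 3, fitted at 0.63 (SE 0.37), with 0.26 without control replicate 2 and 1.20 without control replicate 3. P2rx7 had 6.29 and 5.88 CPM in the control and 5.96 and 4.196 CPM in the agonist libraries. Agonist replicate 3 was the lowest and the other 3 libraries were close together. The fitted value was -0.26 (SE 0.41), the pool 2 wells gave -0.08 and the pool 3 wells -0.48, and it was -0.03 without agonist replicate 3. So the neighbours differed in the sign of their fitted values, a difference that was not tested.

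P2ry14 encodes the receptor for UDP-glucose, a sugar nucleotide that leaves stressed cells, and lies on chromosome 3 (59113855 to 59153618, minus strand). It lies inside Med12l on the opposite strand, and the genes share 0 exon bases. P2ry14 had 35.7 and 41.3 CPM in the control and 42.0 and 48.5 CPM with agonist. The log2 fold change was 0.23 in each pool and in the fit (SE 0.28). The groups were separated by less than 1 CPM, between control replicate 3 and agonist replicate 2.

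**Figure D2:**
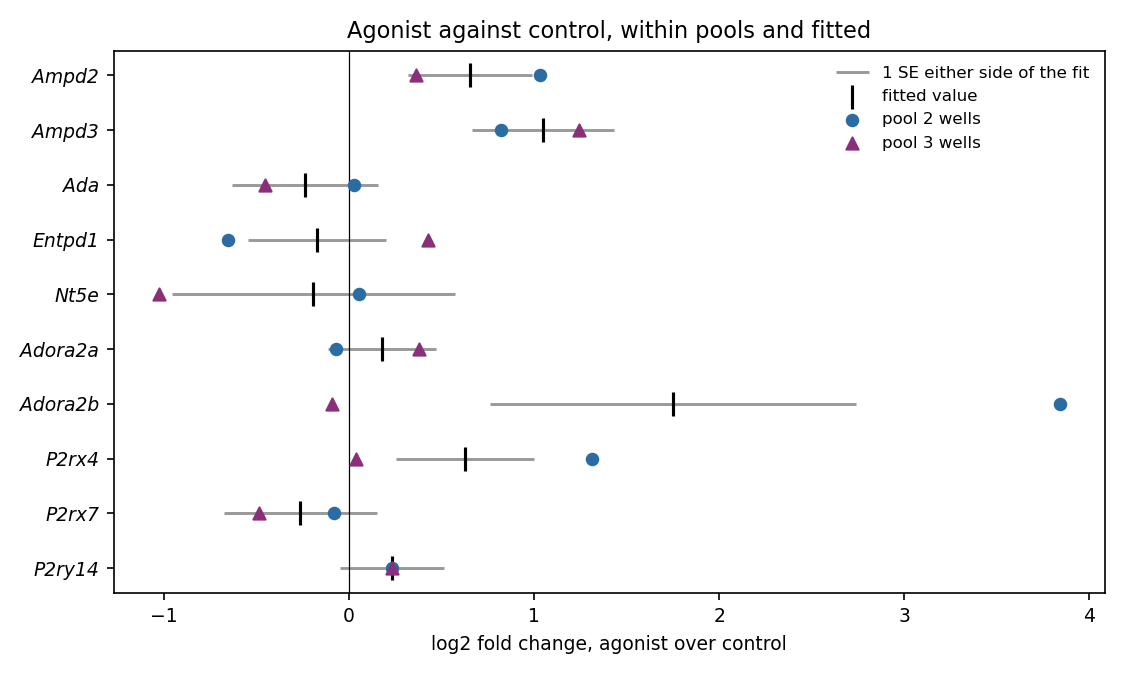
Log2 fold change of agonist over control for the 10 genes in the wells of pool 2 (circles) and pool 3 (triangles), with the fitted value (tick) and 1 SE to either side (line). Ampd3 lies at 0.82 and 1.24 in the pools, while Adora2b lies at 3.84 in pool 2 and -0.09 in pool 3.

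Since Ampd3 led to the selection, the genes with the most similar profile over the 4 libraries were looked up. Among 9837 genes with an average log2 CPM of at least 2, the 5 with the smallest Euclidean distance between centred log2 CPM were Rab3il1 (distance 0.257), Pccb (0.280), Cdc45 (0.311), Srsf4 (0.317) and Snx33 (0.321). Rab3il1 had 3.93 and 4.10 CPM in the control and 8.71 and 8.83 CPM in the agonist libraries. Cdc45, a DNA replication factor, had 6.91 and 6.45 CPM in the control and 10.2 and 12.1 CPM in the agonist libraries. In all, 64 of those genes (0.651%) had a Pearson r over 0.95 with Ampd3 across these 4 libraries, which share pools and wells. Genes picked for likeness to Ampd3 are higher with agonist by that choice, so their values support nothing. With 4 libraries a high r can also arise between unrelated genes. None of the 5 belongs to the purine lists used here.

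The remaining genes of purine metabolism and signalling were taken from 6 lists with 91 genes, of which 71 were tested and 20 were left out by the filter. No library had more than 34 reads for any of those 20, and 6 had no reads. None of the 71 was called in the agonist comparison, where 0% of all genes was called, and none with the pool as a block (0.00547% of all genes). The median fitted log2 fold change of the 71 was -0.07, with 10 higher and 24 lower in both pools (21.0% and 27.9% of all tested genes).

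Genes that interconvert AMP, adenosine and IMP had a median log2 fold change of 0.07 over 17 tested of 22. Nt5c, a cytosolic nucleotidase, had 17.0 and 42.8 CPM in the control and 53.9 and 51.2 CPM in the agonist libraries, and Adss, which starts the way from IMP back to AMP, had 42.0 and 69.1 against 104.4 and 71.7 CPM. In both, control replicate 2 was the lowest library, and the log2 fold change was 1.66 and 1.31 in pool 2 and 0.26 and 0.05 in pool 3. Ampd2 and P2rx4 likewise had control replicate 2 as the lowest library and the larger difference in pool 2. The share of all tested genes with this pattern was not counted, so it is not particular to these genes as far as shown.

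Genes of purine salvage and degradation had a median log2 fold change of -0.08 over 14 tested of 14. Samhd1, which breaks down deoxynucleotides, had a fitted value of -0.01 (SE 0.24) and the salvage enzymes Hprt and Dck -0.15 (SE 0.28) and -0.14 (SE 0.26). For de novo synthesis the median was -0.08 over 10 of 10, with -0.11 (SE 0.28) for Paics, -0.06 (SE 0.28) for Prps1 and -0.13 (SE 0.27) for Gmps.

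The other ectonucleotidases and ecto-enzymes had a median of -0.12 over 13 tested of 18. Dpp4, known as CD26, was the most abundant, at 115.8 ± 21.5 RPKM (SD, n = 4), with a log2 fold change of -0.02 (SE 0.30). The NAD-consuming enzyme gene Cd38 had one of -0.06 (SE 0.33) and Entpd5 one of -0.27 (SE 0.28). Nucleotide release and nucleoside transport had a median of -0.23 over 7 of 12, with -0.18 (SE 0.29) for Slc29a3, -0.27 (SE 0.52) for Slc28a2 and -0.23 (SE 0.48) for Slc29a1. With the pool as a block the latter 2 were -0.36 (SE 0.28) and -0.19 (SE 0.31). In the list of other purinergic receptors the median was -0.08 over 10 tested of 15. P2ry10 had the highest level of that list, at 170.3 ± 38.8 RPKM (SD, n = 4), above Adora2a in mean level. It was listed by its name, and these counts do not show that it senses purines. P2ry13, an ADP receptor, had 7.05 ± 0.957 RPKM and P2ry12 2.17 ± 0.587 RPKM (SD, n = 4).

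**Figure D3:**
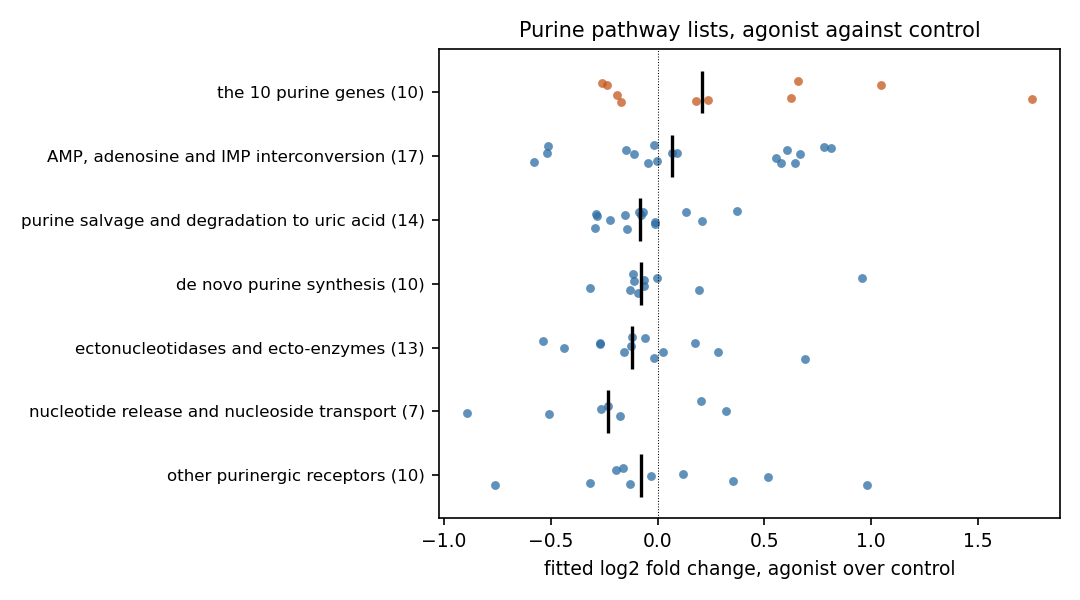
Fitted log2 fold change of agonist over control for the 10 purine genes (orange) and the tested genes of 6 further purine lists (blue), 1 point per gene, with the median as a bar and the number of genes in brackets. List medians lie between -0.23 and 0.07, against 0.21 for the 10 genes, which were put together because of Ampd3.

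The pools gave a comparison that had no part in choosing the group. With the condition as a covariate, edgeR's quasi-likelihood test called 72 of 18297 genes between pool 3 and pool 2 (0.394%; 2536 at an unadjusted p under 0.05). Of the 10 purine genes 0 were called higher (0.104% of all genes) and 0 lower (0.290%), with 1 at an unadjusted p under 0.05. There is 1 pool per arm, with 1 control and 1 agonist well each, so the test does not measure how pools vary. Its spread is the disagreement of the pool difference between the conditions, mixed with the variation of wells. The libraries of pool 2 held 17776 and 21194 reads of Xist and 0 of the Y-linked Ddx3y, those of pool 3 held 0 of Xist and 18752 and 21461 of Ddx3y, so pool and sex cannot be told apart. Both libraries of pool 3 lay above both of pool 2 in 2 of 10 members, Ada and Adora2a (24.0% of tested genes), and below in 2, Nt5e and P2rx7 (25.2%).

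Nt5e had the largest difference of the members between the pools. Its level was 51.5 ± 1.41 CPM (SD, n = 2 wells) in pool 2 and 15.9 ± 7.72 CPM (SD, n = 2 wells) in pool 3. Each SD spans a control and an agonist well. The log2 difference was -1.24 in the control and -2.32 in the agonist wells, fitted at -1.78 (SE 0.34, 95% interval -2.55 to -1.01). It did not pass in edgeR's quasi-likelihood test (unadjusted p = 0.000538, adjusted p = 0.0733). The side of the threshold depended on the tool and on the filter: the adjusted p was 9.4e-05 in DESeq2, 0.0288 in limma-voom and 0.00276 in edgeR with no filter, and otherwise 0.0513 to 0.644, with the log2 difference between -2.32 and -1.27 throughout.

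T cells and B cells are known to carry CD73 as well. Of the 10 T cell markers 8 were lower in both pool 3 libraries than in both of pool 2, with sums of 836.9 and 591.8 CPM in pool 2 and 417.7 and 279.7 CPM in pool 3. Of the 10 B cell markers 7 were, with sums of 1942 and 1752 CPM against 1187 and 963 CPM, and of the 11 macrophage and monocyte markers 8 were, with 5716 and 5116 CPM against 3130 and 3466 CPM. Of the 8 plasmacytoid dendritic cell markers 5 were lower in both pool 3 libraries, and 1 was higher. Of the 6 dendritic cell defining markers 1 was lower and 3 were higher. Over all tested genes 25.2% were lower and 24.0% higher in this way. None of the defining markers of these lists was at 0 in a library. The part of such cells in the Nt5e value was not tested.

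For the other 9 genes the fitted log2 differences between the pools ran from -0.32 for Entpd1 to 0.37 for Ampd2, with edgeR adjusted p values of 0.632 to 0.968. The intervals of these values were wide. For Ampd3, at 0.12 (SE 0.36), the 95% interval ran from -0.70 to 0.93, and for Adora2b, at 0.19 (SE 1.04), from -2.16 to 2.54. Adora2b was 2.25 higher in pool 3 in the control wells and 1.68 lower in the agonist wells on the log2 scale. P2ry14 differed least between conditions in this respect, at 0.21 in both. The median over the 10 genes was 0.20, against -0.01 over all tested genes.

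**Figure D4:**
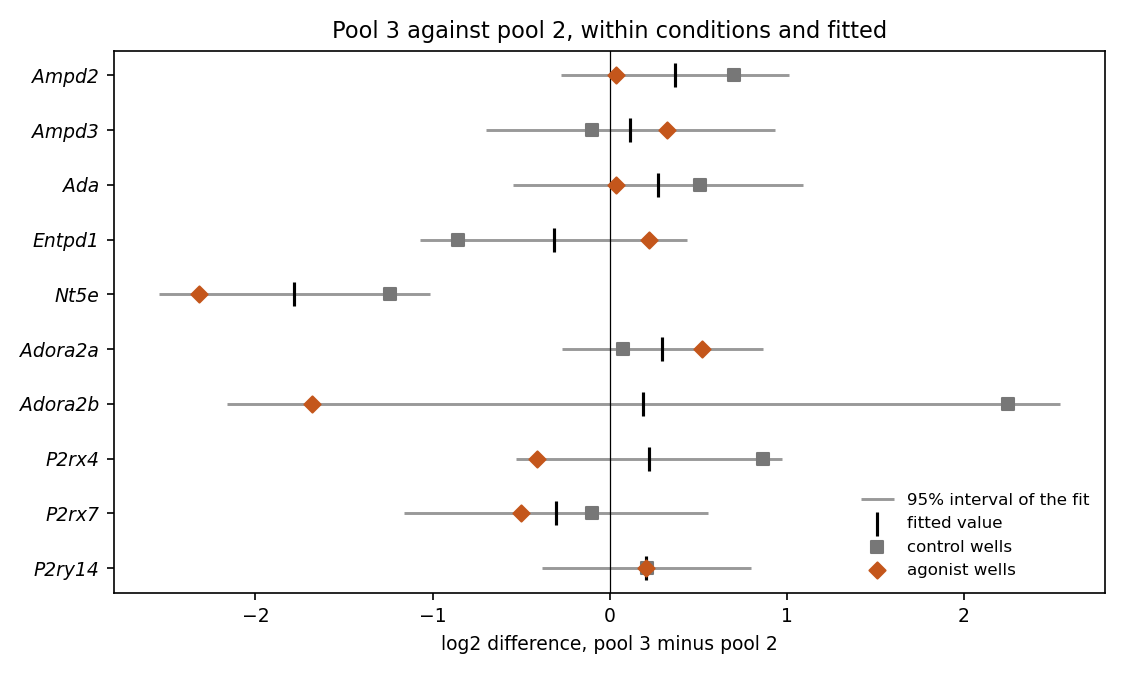
Log2 difference of pool 3 minus pool 2 for the 10 genes in the control wells (squares) and the agonist wells (diamonds), with the fitted value (tick) and its 95% interval (line). The interval of Nt5e runs from -2.55 to -1.01, and those of the other 9 genes include 0.

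Among the 71 tested genes of the purine lists 0 were called between the pools, with a median log2 difference of -0.02. Cd38 had one of -0.54 (SE 0.24, edgeR adjusted p = 0.365) and P2ry10 one of 0.56 (SE 0.23, edgeR adjusted p = 0.332). Slc28a2, a nucleoside transporter that takes up adenosine, had one of -1.10 (SE 0.29, edgeR adjusted p = 0.127). Slc29a1 had one of -0.93 (SE 0.31, edgeR adjusted p = 0.221). DESeq2 called 3 of the 71 and edgeR with no filter 2 of 85.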

How the data were processed

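RNA of CD11c+ mesenteric lymph node cells was sequenced in 4 libraries made with the SMART-seq v4 kit, per the labels' protocols. The deposited values are whole-number read counts per gene, not normalized. The submitters' processing notes name STAR 2.7, HTSeq 0.11.1 and GRCm38 (mm10), with no strand setting in the sources used here. All 55450 identifiers matched GENCODE M21, which supplied coordinates and merged exon lengths. The 5 summary lines per file that name no gene were left out; reads outside genes made up 15.96% to 19.99%, reads in several genes 5.77% to 6.50% and reads aligned to several places 6.54% to 6.99% of all reads.

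Groups and replicate numbers came from the sample titles, and the replicate number was taken as the pool. Genes were kept with edgeR's expression filter (minimum count 10), and trimmed mean of M-values (TMM) factors of 0.947 to 1.05 scaled the libraries. Two-sided quasi-likelihood tests in edgeR 4.0.16 (R 4.3.3) were fitted on all 18297 genes with group as the only term, or with group and pool for the pool comparison, with Benjamini-Hochberg adjustment over all of them and a threshold of 0.05. The SE is the size of the log2 fold change divided by the square root of F. In the agonist fit, which has no pool term, it also takes in the differences between the pools. Within-pool log2 values used a prior count of 2. Alternatives were DESeq2 1.42.0, limma 3.58.1, other scalings and filters, the pool as a block and each library left out. The fits were tested on simulated data, where they missed almost all of the smallest changes and part of the larger ones. The agonist simulations held no pool differences, and every simulation took its spread from the fit without a pool term. For the fits with a pool term they therefore do not show what would be found in the real libraries.

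The protocol divides each pool between wells, and the deviations of same-numbered libraries from the means of their groups correlated (Pearson r = 0.288 over 18297 genes). There were only 2 pools, and p-values measure the spread between these 4 libraries. The members and lists were chosen with earlier results of these data known. All 10 members are described; from each purine list the text names genes past the threshold or else up to 3 with the highest mean RPKM (1 such result is not reported here), and for Ampd3 the 5 nearest genes. Other genes were named after their values were seen.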

Additional observations from a re-analysis of the deposited data

How the results depend on the processing

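In the agonist comparison the count of called genes was 0 in the main edgeR fit, 7 in DESeq2, 9 with no filter and 1 with the pool as a replicate block, and 0 in each fit that left out 1 library. The block called no member and no gene of the purine lists. Between the pools 72 genes were called, against 706 in DESeq2, 275 in limma-voom, 600 with no filter, 8 with a stricter filter (50 reads in 2 libraries), 5 with total counts only and 5 with the pool as the only term, and 712, 0, 1389 and 5 without control replicate 2, control replicate 3, agonist replicate 2 and agonist replicate 3, each with no group term. The count of members called between the pools was 0, but 1 (Nt5e) in DESeq2, in limma-voom and with no filter. With each library left out it was 0 to 1, the 1 being P2rx4 without agonist replicate 2 (log2 difference 0.90, adjusted p = 0.0325). Of the genes of the purine lists 0 were called between the pools, 3 in DESeq2, 2 with no filter and 0 to 4 with each library left out.

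For the members' agonist values, 70 of 70 results under other scalings, tools, filters and the block kept their direction and moved by less than 1 SD between replicates. This SD is each gene's own and is wide for Adora2b and Nt5e, so for them the measure is loose. Nt5e went from -0.19 to -0.49 in limma-voom and still counted as within it. With each library left out 27 of 40 stayed within that SD, 8 moved by more with their sign kept (such as Adora2b, at 3.53 without control replicate 3) and 5 turned, giving ranges of -0.47 to 0.11 for Ada, -0.47 to 0.32 for Entpd1, -1.75 to 0.56 for Nt5e and -0.10 to 0.45 for Adora2a. Of the pool differences, Adora2b turned to -0.62 in limma-voom and -0.76 with the pool as the only term. With each library left out 8 of 40 turned. Without control replicate 2 the values were -0.13 for Ampd2, -0.17 for Ampd3, 0.027 for Entpd1, -1.67 for Adora2b and -0.43 for P2rx4. Adora2b was at -0.88 without control replicate 3 and -0.71 without agonist replicate 3, and Ampd3 at -0.57 without agonist replicate 3. In CPM without length P2ry14 ranked 4 and Entpd1 6 of the members, against 6 and 4 per length. These causes were not tested. Depth limits Adora2b most, with 9 reads in control replicate 2.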

Other observations

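Some purine genes outside the naming rule were looked at after their values were seen. Slc17a9, the vesicular nucleotide transporter that loads ATP for release, had 18.2 and 10.6 CPM in the control wells and 10.8 and 4.69 CPM with agonist. It was lower in the agonist well of both pools, by log2 fold changes of -0.75 and -1.17, and the fitted value of -0.89 (SE 0.52) did not pass edgeR's quasi-likelihood test (adjusted p = 0.9999).

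Adk, the kinase that returns adenosine to AMP, had 102.0 and 74.3 CPM in the libraries of pool 2 and 49.8 and 31.7 CPM in those of pool 3. The log2 difference of pool 3 minus pool 2 was -1.13 (SE 0.25, edgeR adjusted p = 0.0894), the smallest adjusted p of the purine lists in that comparison. Pnp2, a purine nucleoside phosphorylase, lay the other way, with 3.88 and 2.02 CPM in pool 2 and 9.09 and 8.62 CPM in pool 3 (log2 difference 1.66, SE 0.41, edgeR adjusted p = 0.113). Neither passed the test. Reads of Pnp2 can be shared with its near-identical neighbour Pnp, so its values are uncertain.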
